A study of Mus musculus with 18 samples.

Results

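Among 9 mice inoculated with myeloma cells, the lumbar dorsal root ganglia (DRG) of 3 carried far more immunoglobulin transcript than those of the other 6, and the comparison below sets these ganglia against each other. The classes were chosen by measured values of these same libraries: estimated reads of Ighg2b (ENSMUSG00000076613), which encodes the constant part of the IgG2b heavy chain, were summed per library and divided by the library's total, on the CPM scale without further scaling. Libraries above 1000 CPM formed the Ighg2b-high class (MM5, MM8 and MM9), and MM1, MM2, MM3, MM4, MM6 and MM7 formed the Ighg2b-low class. They are 3 and 6 of the 9 MM libraries, in a series of 18. The study itself compared 9 MM with 9 SHAM mice and did not divide the MM group, so the classes are not its treatment groups. All mice were males of the strain C57BL/KaLwRijHsd, with an age of 5 to 7 weeks in the labels. The femur of MM mice had been injected with 5TGM1-GFP, a murine myeloma line that carries a green fluorescent protein, and that of SHAM mice with vehicle. Whole ganglia of lumbar levels 2 to 4 on the operated side were taken on post-surgical day 24, and a library stands for 1 mouse, following the design text. Ighg2b transcript is a share of ganglion RNA, and the labels hold no measure of tumour burden, so "high" and "low" here mean this transcript share only.

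Multiple myeloma is a cancer of plasma cells, the antibody-secreting end stage of the B lymphocyte, and 5TGM1 cells grow in KaLwRij mice, chiefly in bone marrow. A DRG holds the cell bodies of sensory neurons, including the nociceptors that serve bone, each wrapped by satellite glia, together with Schwann cells, vessels and resident macrophages. Type I interferons induce a broad set of antiviral and antigen presentation genes in many cell types, and ganglion macrophages express receptors for chemokines and growth factors.

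Ighg2b stood at 2279.9 CPM in MM5, 2324 in MM8 and 4375 in MM9. The Ighg2b-low libraries ran from 11.4 in MM2 to 387 in MM4, with a median of 304, and SHAM libraries ran from 0.0990 to 15.9. The lowest value inside the high class was thus 5.89 times the highest value outside it, and the class means differed by 12.1 times. MM2 lay below SHAM5 (14.6) and SHAM9 (15.9). These values chose the classes and carry no test. The kappa light chain constant region Igkc and the variable segment Ighv1-54 were likewise highest in MM9 and lowest in MM5 within the high class, and immunoglobulin genes together took 0.527% to 1.02% of reads in the high class and 0.00737% to 0.0928% in the low class. All 425 immunoglobulin genes were left out of the tests.

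**Figure D1:**
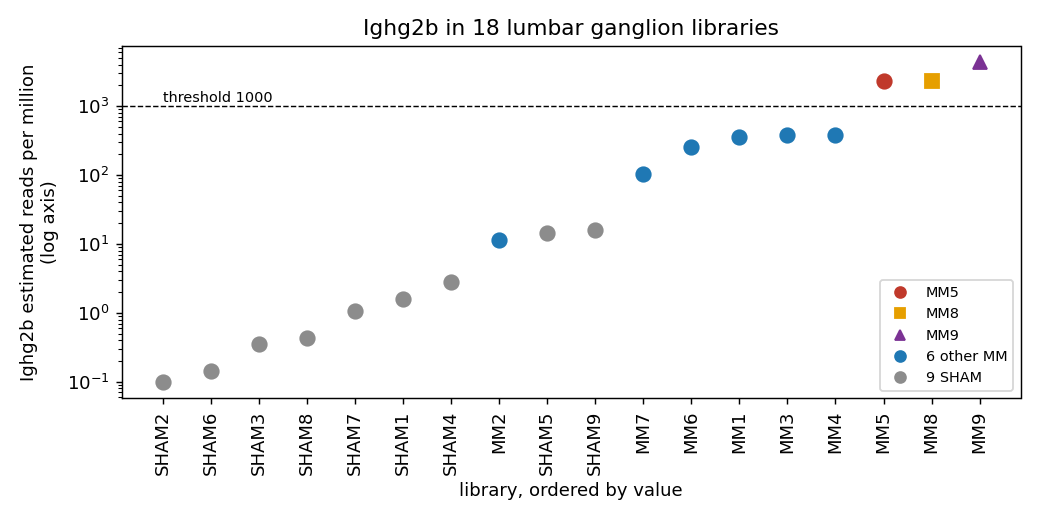
Ighg2b level in CPM of estimated reads (log axis) in each of the 18 libraries, ordered by value, with the threshold of 1000 as a dashed line. MM5, MM8 and MM9 lie between 2279.9 and 4375, the other MM libraries between 11.4 and 387, and MM2 lies among the SHAM libraries.

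The files held between 19813071 and 21750235 estimated reads per MM library, and total reads did not differ between classes beyond their spread (2-sided exact permutation p = 0.167 over 84 assignments). Genes with at least 1 read numbered 22306 ± 193 in the high class and 21700 ± 257 in the low class (mean ± SD, n = 3 and 6; exact permutation p = 0.0119, the smallest that 84 assignments can give), and without MM5 or without MM9 this p was 0.0714. Mitochondrial reads took 4.28% ± 0.532 and 3.86% ± 0.570 (SD, n = 3 and 6; exact permutation p = 0.274; 0.0179 without MM3). Neuronal and satellite glial markers (Tubb3, Prph, Avil, Isl1, Calca, Fabp7) were present in every MM library, as the tissue label says. At these depths 3 reads correspond to 0.138 to 0.151 CPM in MM libraries.

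Ganglia of the high class differed from those of the low class across 30.4% of tested genes, and called differences above 4-fold were all upward. Of 16474 genes tested, 3157 were higher (19.2%) and 1848 lower (11.2%) (edgeR quasi-likelihood test, Benjamini-Hochberg adjusted p under 0.05). The median log2 fold change was 0.89 among genes called higher and -0.37 among genes called lower. More than 4-fold differences were found for 518 genes called higher and for 0 called lower. More than 2-fold differences were found for 1409 called higher and 26 called lower. The classes did not overlap for 3045 genes with the high class above (18.5%) and for 1800 with it below (10.9%). Among genes called higher, MM9 held the highest value of the 3 libraries for 1926, MM5 for 1106 and MM8 for 125. Among genes called lower, MM5 held the lowest value for 1540.

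The balance of directions depended on the scaling. With libraries scaled so that pan-neuronal genes were level, 7881 genes were higher (47.8%) and 30 lower (0.182%), and the median of all genes moved from 0.01 to 0.49 on the log2 scale. All 3157 genes called higher were called higher again, whereas 30 of the 1848 called lower were called lower again. Higher genes made up 63.1% of calls as reported, 99.6% under that scaling and 93.2% with log2 Ighg2b as a continuous term. They made up 74.1% without MM2 and, to the same digit, without MM5. Lower calls numbered 936 without MM2, 850 without MM5, 1223 without MM6, 983 without MM9 and 2778 without MM8. Unless another scaling is named, fold changes below are relative to the bulk of expressed genes (TMM scaling), and CPM values are on that scale. Since 47.8% of all genes were called higher under the pan-neuronal scaling, counts per list given on that scale are read against that share, and counts as reported against 19.2% higher and 11.2% lower. In whole-tissue RNA, fewer cells of a type, less RNA per cell and a smaller share beside added RNA of other cells cannot be told apart.

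**Figure D2:**
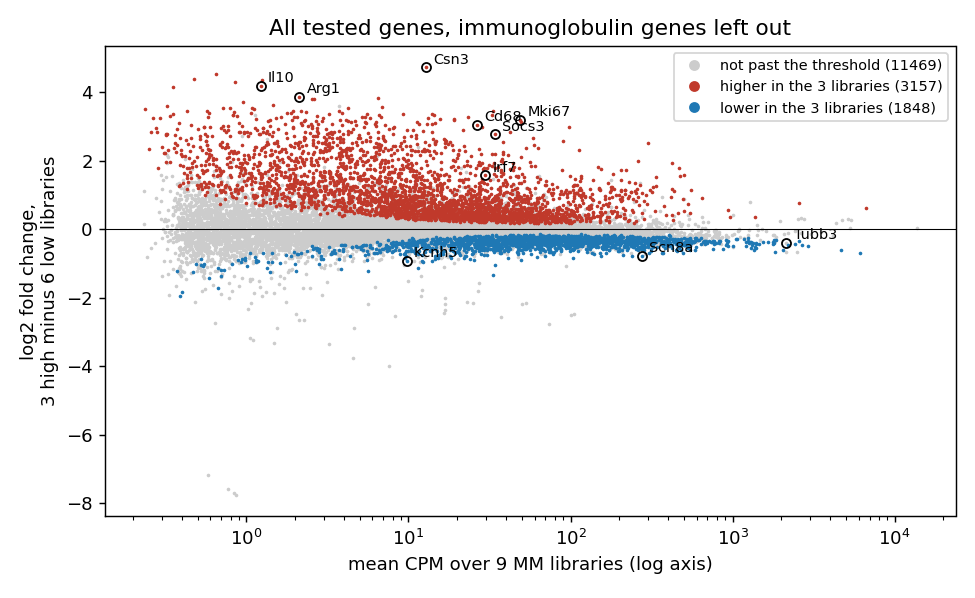
Log2 fold change between the 3 Ighg2b-high and the 6 Ighg2b-low MM libraries against the mean CPM of each of 16474 tested genes (log axis), with 3157 genes called higher, 1848 called lower and circles on 10 named genes. Points called higher reach far above 2 on the log2 scale, whereas 0 genes called lower pass 4-fold; scaled on pan-neuronal genes, 30 genes were called lower.

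Genes of plasma cells can follow the rule that chose the classes, so they are given as a description. Any other gene that the same myeloma cells make can follow it too, which may hold for dividing, secretory, B cell and antigen presentation genes. For such genes the p-values below are not independent of the rule. Of 17 measured members of the plasma cell and myeloma list, 16 passed the threshold, with a median log2 difference of 2.27, and 13 of these 16 had their highest value in MM9. The remaining members, Mzb1, Tnfrsf17 and Cd28, were too low to be tested. Irf4, the transcription factor on which myeloma cells depend, stood at 45.6 CPM in MM5, 78.6 in MM8 and 128 in MM9. In the low class Irf4 ran from 1.04 to 13.0 CPM (median 8.76) and in SHAM from 0.352 to 1.63 (median 0.855). Pou2af1, a B lineage coactivator, was at 56.9, 64.9 and 123 CPM against 0.494 to 14.2 (median 8.44). Sdc1, which encodes the plasma cell surface marker CD138, was at 73.0, 76.9 and 122 CPM, against 16.4 to 48.6 (median 28.0) in the low class and 18.6 to 27.4 (median 21.6) in SHAM. The classes thus did not overlap for these 3 genes, and Sdc1 in the low class overlapped with SHAM. Il6st, the shared receptor subunit of the interleukin 6 family, was the 1 measured member that did not pass.

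The 10 largest fold changes belonged to genes of several functions. They were taken among genes called higher at 1 CPM or more on average, without overlap between classes, predicted models left out. Csn3, which encodes kappa casein, was at 26.6 CPM in MM5, 26.2 in MM8 and 54.6 in MM9, against 0.0494 to 2.68 (median 1.21) in the low class and at most 0.0933 in SHAM (log2 fold change 4.72 ± 0.57 SE, edgeR adjusted p = 0.000609). Il10, an anti-inflammatory cytokine, followed at 1.76, 1.22 and 7.00 CPM against 0.0494 to 0.345 (4.17 ± 0.62, adjusted p = 0.00118). Arg1, the arginine-hydrolysing enzyme of some macrophages, was at 8.20, 2.49 and 6.14 CPM against 0.191 to 0.911 (3.86 ± 0.49, adjusted p = 0.000545). The lack of overlap for these 3 genes was thus required by that choice. Prnd, Mef2b, Slpi, Strc, Bhlha15, Zfp600 and Depdc1a completed the 10, with log2 fold changes of 3.44 to 4.35. Of them Bhlha15 encodes a transcription factor of secretory cells. In all, 13 genes exceeded the 3.60 by which mean Ighg2b differed on the log2 scale.

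Genes of dividing cells were higher as a block. All 20 measured cell cycle genes were called higher (median log2 fold change 2.71, against 0.01 over all genes), and 19 of 20 DNA replication genes were (median 1.33). Mki67, a marker of cycling cells, was at 70.1 CPM in MM5, 89.6 in MM8 and 203 in MM9, against 3.80 to 20.5 (median 14.7) in the low class and 3.21 to 12.9 (median 4.89) in SHAM. Its log2 fold change was 3.19 ± 0.47 (SE; edgeR adjusted p = 0.00147), with the high libraries above every other library. The cyclin gene Ccna2 was at 18.1, 22.1 and 37.2 CPM against 2.22 to 5.87 (median 4.11; 2.75 ± 0.30, adjusted p = 0.000345). The mitotic kinase gene Plk1 was at 10.7, 9.83 and 19.1 CPM against 0.840 to 3.06 (2.80 ± 0.33, adjusted p = 0.000391), and Nusap1, a spindle protein gene, differed by 2.32 ± 0.26. Among replication genes, the helicase subunits Mcm5 (2.05 ± 0.20) and Mcm2 (1.71 ± 0.16) and the sliding clamp Pcna (1.003 ± 0.11) had adjusted p of 0.000185, 0.000187 and 0.000257. Rfc3, a clamp loader subunit, did not pass. MM9, the library with the most Ighg2b, was highest for all 20 cell cycle genes and all 19 replication genes. The counts of both lists were the same without any single library to within 1.5 times.

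Ribosomal and secretory genes were also higher. All 28 ribosomal protein genes were higher, with a median log2 fold change of 1.09 and a largest of 1.41. Rps16 was at 205 CPM in MM5, 156 in MM8 and 223 in MM9, against 60.3 to 84.8 (median 73.9) in the low class and 51.9 to 75.6 (median 59.3) in SHAM (1.41 ± 0.12, adjusted p = 0.000184). Rplp0 (1.17 ± 0.11) and Rpl35 (1.05 ± 0.08) behaved alike, and MM9 was highest for 26 of the 28. Ribosomal genes have many near-identical processed copies, so the share of reads assigned to each is uncertain. Of 20 genes for protein folding and secretion in the endoplasmic reticulum, 16 were higher (median 0.71). Pdia4, a disulfide isomerase, was at 133, 141 and 222 CPM against 44.4 to 56.0 (median 50.4; 1.72 ± 0.15, adjusted p = 0.000184). Xbp1, the factor that expands the secretory apparatus of plasma cells and a member of the plasma cell list, was at 206, 198 and 308 CPM against 81.3 to 93.5 (median 86.2).

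**Figure D3:**
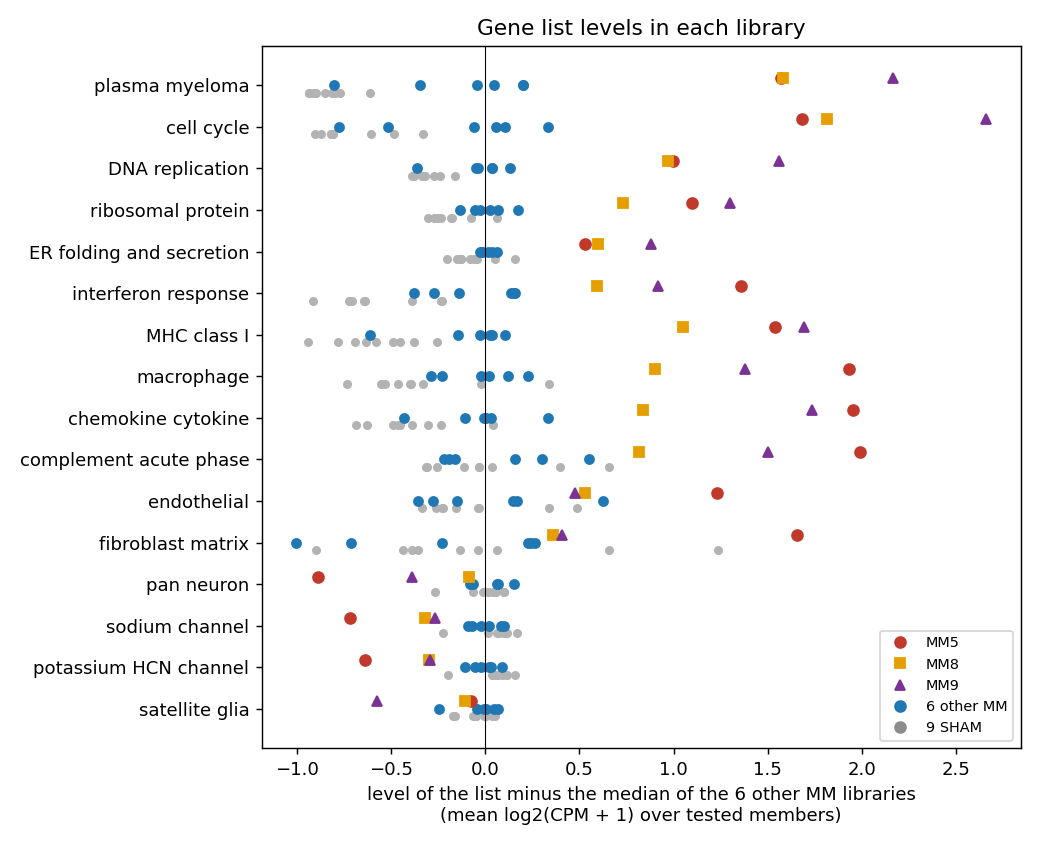
Level of each gene list (mean log2(CPM + 1) over tested members) in every library, minus the median of the 6 Ighg2b-low MM libraries. MM9 leads the cell cycle list and MM5 the interferon and macrophage lists, while MM5 stands lowest for pan-neuronal genes at 8.49 (TMM scale, with no such difference when scaled on these genes).

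Interferon response genes were higher in the high class, most of all in MM5. Of 30 measured genes 26 were higher (median log2 fold change 1.01), and MM5 was the highest library for 25 of the 26. Without MM5, 12 of the 30 passed (median 0.68). Irf7, the transcription factor that amplifies the type I interferon response, was at 79.6 CPM in MM5, 37.1 in MM8 and 44.2 in MM9, against 11.1 to 25.0 (median 18.6) in the low class and 4.92 to 11.3 (median 5.63) in SHAM (1.57 ± 0.29, adjusted p = 0.00416). Trim30a was at 24.5, 13.6 and 21 CPM against 4.59 to 8.01 (1.77 ± 0.20, adjusted p = 0.000308). Bst2, which tethers budding viruses, was at 54.5, 33.4 and 44.5 CPM against 9.43 to 16.5 (1.64 ± 0.19, adjusted p = 0.000385). Oas2, a sensor of viral RNA, was at 15.6, 8.46 and 9.87 against 2.0 to 4.19 (2.01 ± 0.26, adjusted p = 0.000592). The classes did not overlap for these 4 genes, which the rule by which genes were named required of Trim30a, Bst2 and Oas2. Over the list, 21 of 30 genes had the high class wholly above the low class, against 18.5% of all genes. Ifit1, Ifit2, Oasl2 and Ddx58 did not pass.

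The promoters of interferon genes were searched for the core of the interferon-stimulated response element, GAAA and GAAA parted by any 2 bases, on both strands over the 250 bases before the start in RefSeq's table (GRCm38.p6). Of the 20 list genes with an entry, 12 held it (60%), against 394 of 12247 tested genes (3.22%) and 2.98% of all 32851 promoters in the table. The list consists of known interferon targets, so this describes the list and not the libraries. In other lists the motif was held by 2 of 14 promoters of class I presentation genes (14.3%), 5 of 18 of ribosomal protein genes (27.8%), 1 of 14 of macrophage genes (7.14%) and 0 of 11 of chemokine genes. Trim30a and Bst2 of the interferon list and B2m of the class I list are shown as genes that were higher without overlap and held the motif, and were picked after both were known. The stretches run 5′ to 3′ on the gene's strand, with the motif in capitals: chr2:122147508-122147657 on the plus strand for B2m, chr7:104465194-104465343 on the minus strand for Trim30a and chr8:71537493-71537642 on the minus strand for Bst2. The first motif starts 139 bases before the start in B2m, 36 in Trim30a, where it reads on the opposite strand, and 130 in Bst2, where 2 matches overlap. Trim30a has 2 promoters in the table, of which 1 held the motif.
B2m: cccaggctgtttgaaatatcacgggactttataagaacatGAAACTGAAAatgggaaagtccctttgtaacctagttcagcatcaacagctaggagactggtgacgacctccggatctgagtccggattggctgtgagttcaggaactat
Trim30a: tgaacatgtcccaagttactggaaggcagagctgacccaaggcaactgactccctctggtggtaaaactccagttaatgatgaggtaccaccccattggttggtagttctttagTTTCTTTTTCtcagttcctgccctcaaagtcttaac
Bst2: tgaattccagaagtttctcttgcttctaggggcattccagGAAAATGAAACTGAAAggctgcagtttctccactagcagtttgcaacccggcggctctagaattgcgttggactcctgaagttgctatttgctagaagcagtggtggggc

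Antigen presentation genes followed the same direction. All 16 measured genes of MHC class I presentation were higher (median 1.78), with MM9 highest for 12 and MM5 for 4. H2-K1, a class I heavy chain, was at 612 CPM in MM5, 525 in MM8 and 860.4 in MM9, against 59.3 to 140.0 (median 131) in the low class and 43.7 to 78.2 (median 62.2) in SHAM (2.51 ± 0.25, adjusted p = 0.000278). B2m, the light chain that class I heavy chains need at the surface, was at 961, 740.0 and 989 CPM against 246 to 412 (median 289.8; 1.56 ± 0.15, adjusted p = 0.000187). H2-D1 (1.79 ± 0.17) and the proteasome activator Psme1 (1.10 ± 0.12) were also higher, without overlap as the rule for naming required. No match to this motif was found in the windows of H2-D1, Psme1 or Irf7. Class I heavy chains are near-identical in sequence, and reads may be split among them. Of 9 class II genes 5 were higher (median 0.86), all highest in MM5. The class II chaperone Cd74 was at 396, 263 and 336 CPM against 100.3 to 121 (median 106; 1.62 ± 0.11, adjusted p = 9.34e-05). H2-Aa at 103, 52.4 and 55.5 CPM against 36.9 to 41.9 showed how far MM5 stood from MM8 and MM9.

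Macrophage genes were higher in all 3 libraries of the high class. Of 20 measured markers 18 were higher (median 1.62), with MM5 highest for 16 and MM9 for the others, and the summed level ran from 372 to 793.9 CPM in the high class, from 151 to 217.7 in the low class and from 96.1 to 294.9 in SHAM. Cd68, a lysosomal glycoprotein of macrophages, was at 61.9 CPM in MM5, 47.5 in MM8 and 83.6 in MM9, against 2.42 to 12.2 (median 8.28) in the low class and 2.03 to 5.94 (median 2.65) in SHAM (3.05 ± 0.37, adjusted p = 0.000575). Csf1r, the receptor for macrophage colony-stimulating factor, was at 54.6, 29.0 and 29.8 CPM against 11.5 to 21.1 (median 17.4; 1.16 ± 0.23, adjusted p = 0.00618), a range close to that of SHAM (10.3 to 27.8). The complement component C1qa was at 87.6, 42.4 and 54.8 CPM against 15.3 to 26.9 (1.62 ± 0.23, adjusted p = 0.00107). Aif1, which encodes IBA1, was at 5.98, 3.08 and 5.04 CPM against 0.692 to 2.21 (1.63 ± 0.32, adjusted p = 0.00471), and Ms4a7 at 5.61, 3.08 and 5.14 against 0.621 to 1.05 (2.44 ± 0.24, adjusted p = 0.000212). Cd68 was highest in MM9, and Csf1r, C1qa, Aif1 and Ms4a7 in MM5. Cd163 and Cx3cr1, the other 2 measured markers of the list, did not pass. Of 15 genes of phagocyte lysosomes 8 were higher (15 under the pan-neuronal scaling), among them Ctsz (1.54 ± 0.13), Laptm5 (1.77 ± 0.18) and Gusb (1.96 ± 0.22).

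Inflammatory mediators were higher as well, from low levels. Of 15 measured chemokines and cytokines 13 were higher (median 2.51), of 20 complement and acute phase genes 14 (median 1.56; 8 without MM5), and of 14 NF-kB feedback genes 11 (median 0.91). Ccl2, the monocyte attractant, was at 18.4 CPM in MM5, 5.28 in MM8 and 16.5 in MM9, against 0.395 to 2.01 (median 1.49) in the low class and 0.414 to 2.06 (median 0.804) in SHAM (3.27 ± 0.47, adjusted p = 0.00122). Ccl8 was at 15.3, 5.38 and 11.7 CPM against 0.346 to 2.42 (2.93 ± 0.46, adjusted p = 0.00167), and Il1b at 4.96, 1.32 and 5.14 against 0 to 0.615 (3.25 ± 0.60, adjusted p = 0.00386). In each of these genes MM8 was the lowest of the 3 and still above the low class, which the rule for naming required of Ccl8. Il6 reached 0.788, 0.880 and 1.76 CPM against 0 to 0.634 (2.30 ± 0.62, adjusted p = 0.021), and its call ended without MM9. Tnf was too low to be tested, at 0.788, 0.147 and 0.302 CPM against at most 0.148. Socs3, the feedback inhibitor of gp130 cytokine signalling, had one of the lowest p of all genes: 57.5, 82.7 and 97.8 CPM against 8.93 to 13.4 (median 11.9) and 7.70 to 19.97 in SHAM (2.76 ± 0.17, adjusted p = 9.34e-05). Pld4, Unc93b1, Elf4 and Cd74 reached the same adjusted p. Nfkbiz (2.09 ± 0.23), Bcl3 (1.03 ± 0.10) and Nfkb1 (0.66 ± 0.08) were higher, without overlap as the rule for naming required.

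**Figure D4:**
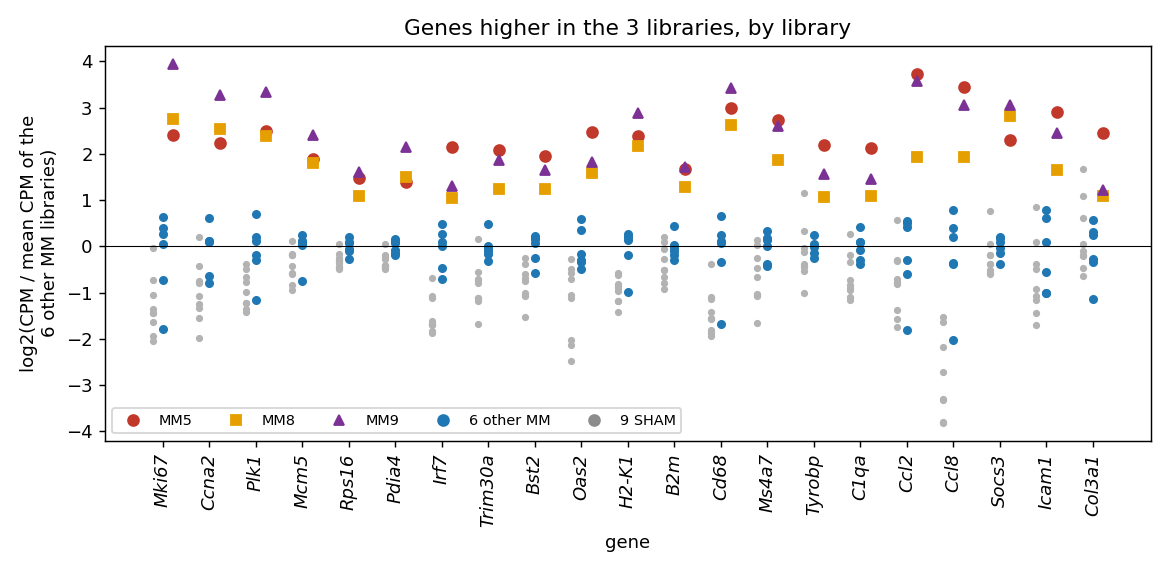
Log2 ratio of CPM to the mean of the 6 Ighg2b-low MM libraries for 21 genes, with 1 point per library and values of 0 left out because a log ratio cannot show them. MM5, MM8 and MM9 lie above the other libraries for most of these genes, with MM9 highest for Mki67 and MM5 for Irf7 and Col3a1.

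Markers of B cells, T and NK cells, neutrophils and red blood cells gave a mixed count. Of 7 measured B cell genes 3 were higher and 1 lower (5 of 9 higher without MM8, 1 higher with a mean of at least 1 CPM, and 5 higher and 0 lower with edgeR under the pan-neuronal scaling, 0 lower at an unadjusted p under 0.05): Cd79b, a B cell receptor subunit, was at 15.9 CPM in MM5, 11.1 in MM8 and 22.6 in MM9 against 0.247 to 2.77 (3.34 ± 0.51, adjusted p = 0.00163), while Ebf1 was at 138, 189 and 164 against 201 to 226 (-0.41 ± 0.09, adjusted p = 0.00911; 0.03 when scaled on pan-neuronal genes). Ms4a1, which defines B cells, was too low to be tested. Of 16 T and NK cell genes 6 could be tested and 5 of these were higher. The count was 1 without MM5, 3 without MM9 and 13 of 13 tested without MM8. Their summed level stayed at 6.70 to 16.8 CPM in the high class, against 3.21 to 7.12 in the low class, and Cd3d, Cd3e, Cd3g and Cd8a were too low to be tested. Of 14 neutrophil genes 2 were higher, a share below the 19.2% of all genes, and for both the classes overlapped. The count was 1 without MM1, MM2, MM4, MM5, MM7 or MM9, and 5 under the pan-neuronal scaling. Of 8 red blood cell genes 0 passed (edgeR; 0 at an unadjusted p under 0.05, 0 with DESeq2), and 4 were higher under the pan-neuronal scaling. The alpha globin Hba-a1 was at 60.0, 38.0 and 24.8 CPM against 11.1 to 42.9 in the low class and 60.8 to 752 in SHAM (0.71 ± 0.41, adjusted p = 0.216; 1.26, adjusted p = 0.0459, under the pan-neuronal scaling).

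Vessel and connective tissue genes were higher in part, most of them with their highest value in MM5. Of 18 endothelial genes 8 were higher (median 0.72; 13 under the pan-neuronal scaling), with MM5 highest for 7. The other 10 did not pass, among them Cdh5, Cldn5 and Tie1. The list level was 4.87 in MM5, 4.17 in MM8 and 4.12 in MM9. It ran from 3.29 to 4.27 in the low class and from 3.30 to 4.13 in SHAM. MM8 and MM9 thus lay inside the range of the low class. Pecam1, an endothelial junction protein, was at 61.3 CPM in MM5, 40.3 in MM8 and 43.3 in MM9, against 22.8 to 36.1 (median 24.1; 0.89 ± 0.17, adjusted p = 0.00456). Icam1, which leukocytes bind, was at 31.5, 13.1 and 22.96 CPM against 2.07 to 7.19 (2.42 ± 0.43, adjusted p = 0.00352), and Vcam1 and Plvap differed by 1.12 ± 0.20 and 1.27 ± 0.22. Of 15 fibroblast and matrix genes 6 were higher, 1 without MM5, 3 without MM2 and 11 under the pan-neuronal scaling. Their summed level was 5245 CPM in MM5 and 2022 to 2189 in MM8 and MM9, against 789.7 to 1973 in the low class and 914 to 3889 in SHAM. Col3a1 was at 683, 268 and 291 CPM against 57.4 to 186 (1.72 ± 0.39, adjusted p = 0.011), and the calls of Col3a1 and Col1a1 ended without MM5. Among matrix proteases and their inhibitors 7 of 14 were higher (4 without MM5), led by Adamts4 at 8.34, 10.4 and 8.56 CPM against 1.33 to 2.25 (2.37 ± 0.19, adjusted p = 0.000184), and Timp2 was lower (-0.38 ± 0.10, adjusted p = 0.0212; 0.08 when scaled on pan-neuronal genes, and the call ended without MM9).
Fat and muscle genes varied among libraries. Fat cell genes summed to 89.5 CPM in MM5, 19.0 in MM8 and 35.8 in MM9, against 14.3 to 20.8 in the low class and 14.8 to 129 in SHAM, so MM8 lay inside the low class. Of 5 tested 3 were higher (1 without MM5, 5 of 6 without MM8 and 5 under the pan-neuronal scaling). The adipocyte-defining genes Adipoq and Plin1 were too low to be tested. Skeletal muscle genes summed to 23.9 to 254.8 CPM in the high class, 19.3 to 2490 in the low class and 3.26 to 23610 in SHAM, with 0 of 11 past the threshold (edgeR; 0 at an unadjusted p under 0.05, 2 lower with DESeq2). Their fitted log2 fold changes ran from -3.76 to -2.16 (median -2.52), so all were lower by more than 4-fold without being called. The part of these cell types in the other results was not tested.

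Neuronal genes were lower in the high class relative to the bulk of genes, a direction that vanished by construction when libraries were scaled on them. Of 16 measured pan-neuronal genes 7 were lower (median log2 fold change -0.41), and MM5 was the lowest library for all 7. The list level was 8.49 in MM5, 9.30 in MM8 and 8.99 in MM9, against 9.30 to 9.53 in the low class and 9.11 to 9.48 in SHAM. MM8 therefore lay at the edge of the low class, and the count was 1 without MM9, 2 without MM2, 4 without MM3, 3 without MM4, MM5 or MM6, and 14 without MM8 (12 with DESeq2). Rbfox3, which encodes the nuclear antigen NeuN, was at 134 CPM in MM5, 213 in MM8 and 178 in MM9, against 229 to 273 (median 241) in the low class and 211 to 278 (median 257) in SHAM (-0.49 ± 0.13, adjusted p = 0.0181). Isl1, a sensory neuron transcription factor, was at 41.9, 66.0 and 53.3 CPM against 67.3 to 77.4 (-0.44 ± 0.12, adjusted p = 0.0231). The calls of Rbfox3 and Isl1 ended without MM9. Tubb3, the neuronal beta tubulin, was at 1256, 2507 and 1557 CPM against 2089 to 2579 (-0.40 ± 0.19, adjusted p = 0.13), with MM8 inside the low class. Prph (-0.39 ± 0.11, adjusted p = 0.0267) and Avil (-0.36 ± 0.11, adjusted p = 0.0309) passed as reported; Prph lost its call without MM2, MM5 or MM9, and Avil also without MM4 or MM6.

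Subtype markers of sensory neurons gave few calls, and of the lower genes named next Mrgprd and Ntrk2 turned positive when scaled on pan-neuronal genes (0.16 and 0.043). Among genes of peptidergic nociceptors, Calca, which encodes the pain peptide CGRP, was at 582, 794 and 794 CPM against 797 to 944 (-0.24 ± 0.11, adjusted p = 0.132), and Tac1, the substance P precursor, at 104, 154 and 199 against 153 to 217 (-0.15 ± 0.19, adjusted p = 0.576). Neither passed. Of 16 genes of non-peptidergic and itch neurons 2 were lower, a share near the 11.2% of all genes (1 without MM5 or MM9, 4 with DESeq2). Under the pan-neuronal scaling 3 of the 16 were higher and 0 lower (edgeR; 0 lower at an unadjusted p under 0.05). The 2 were Mrgprd, a receptor of skin nociceptors, at 102, 87.9 and 100.5 CPM against 115 to 133 (median 120.3; -0.33 ± 0.07, adjusted p = 0.00937) and Mrgprx1, a related receptor. Of 14 genes of large, myelinated-fibre neurons 3 were lower (9 with DESeq2, 8 without MM8; 2 higher and 0 lower with edgeR under the pan-neuronal scaling, 1 lower at an unadjusted p under 0.05): the neurotrophin receptors Ntrk2 (-0.41 ± 0.10, adjusted p = 0.0148) and Ntrk3 (-0.65 ± 0.19, adjusted p = 0.0267), and Cntnap2 (-0.60 ± 0.19, adjusted p = 0.0384), whose call ended without MM1, MM2, MM3, MM4, MM6, MM7 or MM9. The heat and capsaicin receptor Trpv1 was at 69.8, 104 and 136 CPM against 92.7 to 137 (-0.07 ± 0.19, adjusted p = 0.805).

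Genes of voltage-gated channels were lower in part on the TMM scale, and most of these calls ended when pan-neuronal genes were held level. Of 12 sodium channel subunits 7 were lower (median -0.37; 4 without MM1, MM3, MM5 or MM6), and of 19 potassium and HCN channel genes 13 were (median -0.49; 8 without MM2 or MM5). With pan-neuronal genes held level the potassium and HCN list lost all 13 calls, with 1 gene higher (edgeR; 0 lower at an unadjusted p under 0.05), and the sodium channel list kept 3 lower genes. Scn8a, which encodes the sodium channel of nodes of Ranvier, was at 115 CPM in MM5, 244 in MM8 and 202 in MM9, against 302 to 359.5 (median 314) in the low class and 213 to 396 (median 339.9) in SHAM (-0.78 ± 0.19, adjusted p = 0.0152). Scn1a was at 63.2, 136 and 115 CPM against 163 to 195 (median 178; -0.78 ± 0.20, adjusted p = 0.0174). Both showed the high class wholly below the low class, as the rule for naming required. SHAM6 lay inside the range of the high class for both, at 213 CPM for Scn8a and 122 for Scn1a. SHAM4 lay between the classes for both, at 283.5 and 160.3 CPM. The nociceptor channels Scn10a and Scn9a turned positive when scaled on pan-neuronal genes (0.16 and 0.050). On the TMM scale Scn10a was at 767, 701 and 865 CPM against 917 to 1052 (-0.33 ± 0.09, adjusted p = 0.0185), and Scn9a at 332, 409 and 497 against 485 to 652 (-0.41 ± 0.13, adjusted p = 0.039), with MM9 inside the low class and the call lost without any of MM1, MM2, MM3, MM4, MM5, MM6 or MM8. Among potassium channels, Kcna2 was at 387, 459.9 and 455 CPM against 563 to 635 (-0.48 ± 0.08, adjusted p = 0.00211), Kcnk18 at 9.13, 11.9 and 9.87 against 14.1 to 17.9 (-0.61 ± 0.11, adjusted p = 0.00387) and Kcnh5 at 3.98, 8.51 and 5.84 against 10.4 to 13.3 (-0.92 ± 0.20, adjusted p = 0.0088).
Of 16 transduction genes 2 were higher, a share below the 19.2% of all genes, and 4 lower. The 4 were 1 without MM1, MM2, MM4, MM5 or MM6 and 2 without MM3 or MM9, and under the pan-neuronal scaling 4 genes were higher and 0 lower (edgeR; 1 lower at an unadjusted p under 0.05). The mechanically gated channel Piezo1 was higher, at 44.6, 27.8 and 44.1 CPM against 7.26 to 15.1 (1.81 ± 0.25, adjusted p = 0.000879), as was P2rx4 (0.29 ± 0.07), whereas Asic2 was lower (-0.30 ± 0.08, adjusted p = 0.0233; 0.18 when scaled on pan-neuronal genes, and the call ended without MM5).

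**Figure D5:**
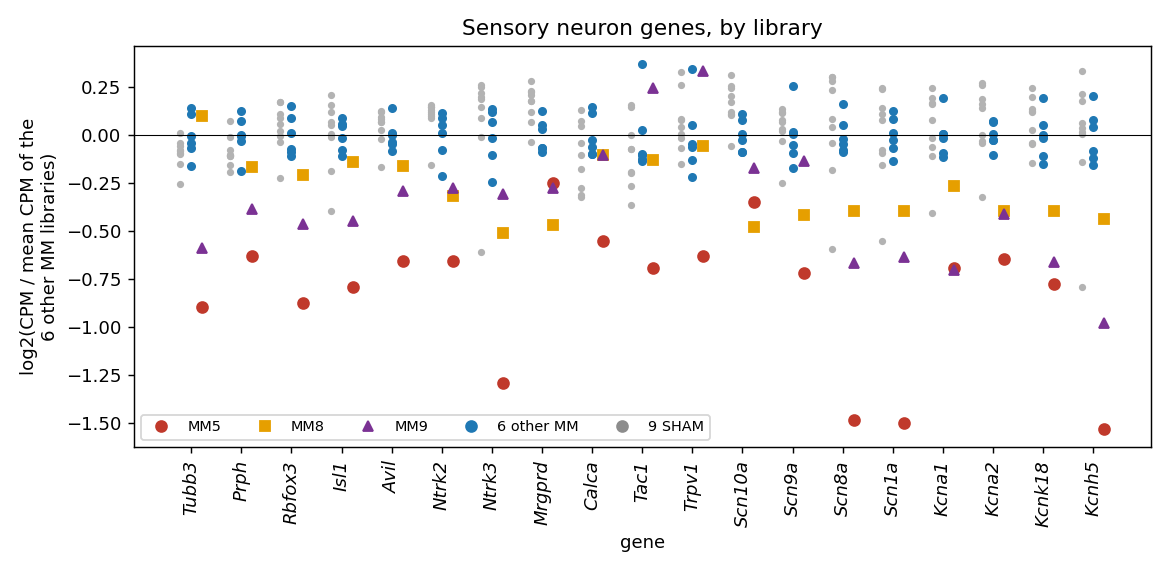
Log2 ratio of CPM to the mean of the 6 Ighg2b-low MM libraries for 19 sensory neuron genes, with 1 point per library. MM5 is lowest for most of them; scaled on pan-neuronal genes, the fold changes of Tubb3, Prph, Avil, Ntrk2, Mrgprd, Calca, Tac1, Trpv1, Scn10a and Scn9a turn positive, while Scn8a (-0.39), Scn1a (-0.38) and Kcnh5 (-0.52) were called lower.

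The neuronal differences were then set against the level of pan-neuronal genes. With pan-neuronal genes held level, 3 sodium channel subunits were still lower: Scn8a (-0.39 ± 0.10, adjusted p = 0.0118), Scn1a (-0.38 ± 0.11, adjusted p = 0.0182) and the beta subunit Scn4b (-0.29 ± 0.11, adjusted p = 0.045). The 30 genes lower on this scale also held Kcnh5 (-0.52 ± 0.15), Kcnh7 (-0.34 ± 0.10), the nicotinic receptor subunit Chrna7 (-0.43 ± 0.11) and the delta opioid receptor Oprd1 (-0.48 ± 0.18), of which Kcnh5 and Kcnh7 are not in the potassium and HCN list and all but Kcnh5 were picked after their values were seen. Chrna7 was at 18.7 CPM in MM5, 32.0 in MM8 and 29.8 in MM9, and Oprd1 at 6.90, 16.9 and 11.7. The low class ran from 44.6 to 53.1 for Chrna7 and from 18.1 to 24.6 for Oprd1. Of 9 SHAM libraries, 4 also lay below the low class for Chrna7 (SHAM4, SHAM6, SHAM7 and SHAM8, at 34.3 to 41.6 CPM) and 1 for Oprd1 (SHAM6, at 11.1). SHAM6 also lay inside the range of the high class for Scn4b (275.8 CPM), Kcnh5 (6.66) and Kcnh7 (152).

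Few glial and injury genes passed the test. Of 14 myelin genes 0 passed (edgeR; 0 at an unadjusted p under 0.05, 0 with DESeq2). Of 12 satellite glial genes 2 were lower, against 11.2% of all genes. The count was 1 without MM2, MM4, MM5 or MM6, 5 without MM8, and 0 without MM9 (edgeR; 2 lower at an unadjusted p under 0.05) or under the pan-neuronal scaling (edgeR; 0 lower at an unadjusted p under 0.05). One of the 2 was Ttyh1 (-0.48 ± 0.12, adjusted p = 0.0146; the call ended without MM9). Of 15 axon injury genes 0 passed (edgeR; 0 at an unadjusted p under 0.05, 0 with DESeq2), and 2 were higher without MM4, 1 without MM5 and 3 under the pan-neuronal scaling (median 0.94). Atf3, the classic injury marker of sensory neurons, was at 16.2, 84.6 and 21.8 CPM against 6.81 to 83.0 (median 13.3) in the low class and 11.9 to 27.3 in SHAM (0.75 ± 0.83, adjusted p = 0.521). MM8 of the high class and MM4 of the low class held the high values, and the injury list level was likewise highest in these libraries, at 5.69 and 5.55, against 3.41 to 4.36 in the other MM libraries.

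Other lists differed in how many members passed. Of 16 immediate early genes 10 were higher (6 without MM2 or without MM9), led by Junb at 69.7 CPM in MM5, 76.8 in MM8 and 101 in MM9 against 21.8 to 29.7 (1.72 ± 0.12, adjusted p = 9.34e-05). Of 16 apoptosis and p53 genes 11 were higher, among them the survival gene Mcl1 (1.21 ± 0.11) and the caspases Casp8 (2.43 ± 0.28) and Casp4 (2.38 ± 0.29), and Bcl2 was lower (-0.23 ± 0.06, adjusted p = 0.0159; 0.24 when scaled on pan-neuronal genes). Of 18 cholesterol synthesis genes 0 passed (edgeR; 0 at an unadjusted p under 0.05, 1 lower with DESeq2, 2 lower without MM8), and of 13 mitochondrially encoded genes 0 passed (edgeR; 1 higher at an unadjusted p under 0.05, 1 with DESeq2; 3 higher without MM3). Of 17 nuclear genes of oxidative phosphorylation 1 was lower (edgeR; 6 with DESeq2, 2 without MM8, and the call ended without MM2, MM4, MM5, MM6 or MM7). These 3 lists turned under the pan-neuronal scaling, with 9 of 18, 9 of 13 and 11 of 17 genes higher and medians of 0.39, 0.53 and 0.35, beside a median of 0.49 for all genes. Circadian clock genes gave 1 higher (5 under the pan-neuronal scaling) and 1 lower of 14. With log2 Ighg2b as a continuous term, 9.45% of all genes were higher and 0.692% lower. The term uses the values that chose the classes, so its counts are not independent of the rule. On its scale MM2 (11.4 CPM) stood apart from MM7 (104 CPM), the next lowest MM library. In that fit 19 of 20 cell cycle and 26 of 28 ribosomal protein genes were higher. Higher genes numbered 14 of 30 for interferon response, 7 of 20 for the endoplasmic reticulum, 7 of 16 for apoptosis and 6 of 20 for complement. They numbered 5 of 16 for immediate early genes, 3 of 14 for NF-kB feedback, 3 of 18 for endothelium, 1 of 9 for MHC class II and 0 of 15 for fibroblast and matrix genes. Lower genes numbered 1 for potassium and HCN channels and 0 for sodium channels and pan-neuronal genes (edgeR; 4 and 6 lower at an unadjusted p under 0.05).

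Against SHAM, the high class differed widely and the low class little. In a fit of all 18 libraries over 16897 genes, 3938 genes were higher in the high class than in SHAM (23.3%) and 3366 lower (19.9%), whereas 79 were higher in the low class (0.468%) and 11 lower (0.0651%). Both contrasts share the SHAM libraries, and the low class has more libraries than the high class. The count of 79 was 38 without MM1, 26 without MM3, 33 without MM4, 47 without MM6 and 164 without MM2, the MM library with the least Ighg2b. Among genes named here, Irf7 was higher than in SHAM by 1.41 ± 0.22 in the low class (adjusted p = 0.00675) and by 2.98 ± 0.26 in the high class (adjusted p = 8.61e-08). H2-K1 was higher by 0.92 ± 0.17 (adjusted p = 0.0193) and 3.43 ± 0.20 (adjusted p = 3.84e-09), Cd68 by 1.33 ± 0.29 (adjusted p = 0.0458) and 4.38 ± 0.32 (adjusted p = 1.79e-08), and Ccl8 by 2.66 ± 0.47 (adjusted p = 0.0128) and 5.60 ± 0.49 (adjusted p = 7.8e-08). Csn3 and Strc were higher in both classes too, and Hba-a1 was lower in both, with log2 differences of -3.10 ± 0.57 (adjusted p = 0.019) and -2.38 ± 0.73 (adjusted p = 0.0146). For Mki67 (1.16 ± 0.37, adjusted p = 0.284), B2m (0.33 ± 0.17, adjusted p = 0.659) and Socs3 (0.16 ± 0.19, adjusted p = 0.923) the low class was not called different from SHAM, and for Scn8a its difference was -0.07 ± 0.15 (adjusted p = 0.97) against -0.85 ± 0.19 in the high class (adjusted p = 0.00188).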

How the data were processed

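RNA of the ganglia of 18 mice was sequenced on DNBSEQ instruments. Per the submitters' processing notes the authors used Salmon 1.5.2, DESeq2 and the build GRCm39; the index and options are not given in the sources used here. The deposited files hold an estimated count of reads per transcript, which the authors did not scale, and a table of normalized signal per gene that the authors made for all samples. Every per-sample column in use was matched to a sample. Per gene, the estimated counts were added up and then rounded to whole numbers. Gene names came from GENCODE M21, which annotates GRCm38, and serve as names only: 3620 of 137562 transcripts had no gene there.

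Immunoglobulin genes (425) were left out. In R 4.3.3, edgeR 4.0.16 kept genes by filterByExpr, applied TMM scaling and fitted its robust quasi-likelihood model to the 9 MM libraries, with class as the only term; the biological coefficient of variation was 0.202. A fit of all 18 libraries in 3 classes gave the contrasts with SHAM. A gene passed at a Benjamini-Hochberg adjusted p under 0.05, and "±" after a log2 fold change is its SE. P-values measure the spread between libraries, and the classes were themselves read from these libraries. Counts were simulated for 3 and 6 libraries over 16075 genes, from means and dispersions of the 6 Ighg2b-low libraries. For each fold 50 genes were changed, up and down alike. Of these, 52% with a 1.5-fold, 84% with a 2-fold, 94% with a 4-fold and 98% with an 8-fold change were found, and 8 of 172 calls were false. In the real comparison far more genes differed, mostly upward, and the 3 high libraries were uneven, so these rates need not hold there. Depth sets the precision of low values, and 3 reads is the limit given for a count of 0, for counting error only.

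The members of the classes and the 43 gene lists were chosen with earlier results of these data known, so counts per list are descriptions and carry no p. CPM are TMM-scaled over all 18 libraries. Named genes had adjusted p under 0.05, at least 1 CPM on average, a symbol other than those of predicted models and no overlap between classes. The rule took the 10 largest fold changes and the 5 lowest p in each direction and up to 3 members per list and direction; 30 genes were always described. A few results under this rule are not reported here. Genes named only as not passing or too low to be tested, Mrgprx1, Scn4b, Kcnh7, Chrna7 and Oprd1 were chosen after their values were seen. Alternatives were DESeq2 1.42.0, other scalings and filters, a continuous Ighg2b term, limma 3.58.1 on log2(value + 1) of the deposited table, a replicate block and leaving out each MM library.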

Additional observations from a re-analysis of the deposited data

Results flagged for a closer look

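Among the 6 Ighg2b-low MM libraries, 1 library lay apart from the other 5 by Dixon's test at the 95% level for 17 of 182 values examined (139 genes and 43 list levels, of the same libraries and so not independent). Chance flags about 1 in 20 groups. The 17 comprise 12 genes and 5 list levels.

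MM4 stood highest for Atf3 at 83.0 CPM, against 6.81 to 17.7 in the other low libraries, for Tac1 at 217 CPM against 153 to 171, for Fabp7 at 142 CPM against 83.1 to 99.4 and for Il6 at 0.634 CPM against 0 to 0.198. The peptidergic nociceptor list was also highest in MM4, at a level of 6.45 against 5.87 to 6.05.

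MM2, which had the least Ighg2b of all MM libraries, stood lowest for the replication helicase genes Mcm5 at 2.72 CPM, against 4.63 to 5.43, and Mcm2 at 5.73 CPM, against 7.66 to 8.69. It was also lowest for the level of the DNA replication list (2.48 against 2.79 to 2.97), the MHC class I list (4.32 against 4.78 to 5.03) and the phagocyte lysosome list (6.503 against 6.67 to 6.73), and highest for the potassium channel gene Kcna1, at 333 CPM against 269 to 292.

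MM7 was highest for Arg1 at 0.911 CPM against 0.191 to 0.444, for Pecam1 at 36.1 CPM against 22.8 to 25.8 and for Trim30a at 8.01 CPM against 4.59 to 5.77. MM1 was highest for B2m at 412 CPM against 246 to 308. MM6 was lowest for the metal-binding Mt1 at 31.2 CPM against 71.7 to 94.5. MM3 was lowest for the level of the satellite glia list, at 6.98 against 7.18 to 7.29.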

How the results depend on the processing

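Numbers of genes higher and lower in the Ighg2b-high class were 7881 and 30 when scaled on pan-neuronal genes and 1556 and 114 with log2 Ighg2b as a continuous term, which tests a slope and not a step. They ranged from 2375 to 3444 higher and from 850 to 2778 lower over the fits that left out 1 MM library. DESeq2 (3272 and 2659), RLE size factors (3081 and 2116), library totals (3502 and 1458), no filter on low counts (2968 and 1462), a mean of at least 1 CPM (2979 and 1986), all 18 libraries (3648 and 2747) and limma on the authors' deposited table (2783 and 1754) stayed within 1.5 times. Against SHAM, leaving out 1 MM library gave 26 to 164 higher and 1 to 11 lower genes in the low class and 3170 to 4064 and 2281 to 3806 in the high class.

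The labels number MM and SHAM mice alike, and the high and low classes share no number. With the replicate number as a block over all 18 libraries, 2169 genes were higher and 1331 lower in the high than in the low class, and the low class gave 9 and 2 against SHAM. The chemokine list then had 8 higher genes. Correlations of same-numbered deviations passed 0.1 for 2 of 9 numbers, and 0 of 9 libraries correlated best with their own number. The labels do not say whether a number marks a shared batch, and these correlations cannot settle it. A call lost with the block says nothing of the size of an effect.

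Differences between class means ranged, without 1 MM library, from 511 (without MM9) to 704 genes detected, from -727985 to -289672 reads, from 0.114 to 0.624 percentage points of mitochondrial reads and from -0.161 to 0.0827 points of reads without a gene (0.0827 without MM9). Of 128 named genes past the threshold, 100 kept their call in all 9 fits without 1 library, 81 of 86 higher and 19 of 42 lower; the cause was not tested. Scaled on pan-neuronal genes, log2 fold changes turned positive for Npr2 (0.11), Plcb1 (0.10), Asphd2 (0.012), Tubb3 (0.0016), Prph (0.061), Calca (0.21), Tac1 (0.29), Mrgprd (0.16), Scn9a (0.050), Scn10a (0.16), Trpv1 (0.36), Ebf1 (0.033), Avil (0.087), Ntrk2 (0.043), Asic2 (0.18), Trpm3 (0.26), Cadm2 (0.18), L1cam (0.078), Timp2 (0.076), Cry2 (0.063), Sdha (0.27), Bnip3 (0.088), Aldoa (0.13) and Bcl2 (0.24), a shift that the scaling itself makes. Tac1 was at 0.027 with the block and Trpv1 at 0.00099 with the continuous term. Leaving out 1 MM library gave -0.39 (without MM9) to 0.055 (without MM5) for Tac1, -0.32 (without MM9) to 0.14 (without MM5; 0.0091 without MM4) for Trpv1 and -0.36 (without MM8) to 1.70 (without MM4) for Atf3.

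The high class holds 3 libraries, and genes near 3 reads are limited by depth.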
